A study of Mus musculus with 2 samples.

Results

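The transcripts described here are those of 9 genes that sense or respond to molecules made or modified by gut microbes: Ffar2, Hcar2, Gpr35 and Gpbar1, which encode G protein-coupled receptors, Ahr, Ahrr, Tiparp and Cyp1b1 of the aryl hydrocarbon receptor (AHR) pathway, and the vitamin D receptor gene Vdr. They were taken by name from the 26981 genes listed across both expression matrices, and all 9 had at least 1 UMI (unique molecular identifier, 1 per captured transcript) in the kept cells of each library. The cells were CD45+ cells of the visceral adipose tissue (VAT, the epididymal white fat depot in the sample titles) of wildtype C57BL/6 mice aged 15 weeks, drinking normal water (NW) or water with antibiotics (ABX), and each condition was 1 BD Rhapsody library (n = 1). CD45 was selected on magnetic beads after enzyme digestion of the tissue. The study's methods describe ampicillin, streptomycin, colistin and vancomycin in the water, singly or mixed, and neither the choice for this library nor the number of mice behind a library is given in the sources used here. With 1 library per condition no test between conditions is possible, so every difference below is a difference between those libraries, and every interval is a 95% interval that covers counting error only.

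Short-chain fatty acids such as acetate, propionate and butyrate arise from bacterial fermentation of fiber, and FFAR2 (also called GPR43) is their receptor on several leukocytes, while HCAR2 (GPR109A) binds butyrate and niacin. GPR35 responds to tryptophan-derived ligands including kynurenic acid, and GPBAR1 (TGR5) responds to secondary bile acids. AHR is a ligand-activated transcription factor that binds indoles and other aryl ligands, pairs with ARNT and turns on a short list of targets, among them Cyp1a1, Cyp1b1, Tiparp and its own repressor Ahrr, and VDR is the nuclear receptor for active vitamin D that also binds lithocholic acid.

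Because the AHR pathway results below concern AHR target genes, the bases before the start of the targets Ahrr, Cyp1a1 and Cyp1b1 are shown, from the RefSeq promoter table on GRCm38.p6. Each run holds the 250 bases upstream of the start, read 5' to 3' on the strand of the gene, and overlapped no exon of the GENCODE annotation. Capitals mark the core of the AHR response element, GCGTG, or its reverse complement CACGC. The runs lie at chr13:74292332-74292581 (minus strand) for Ahrr, chr9:57697363-57697612 (plus strand) for Cyp1a1 and chr17:79715062-79715311 (minus strand) for Cyp1b1. The Cyp1a1 run lies inside the GENCODE span of that gene (chr9:57687928-57703824), so the RefSeq start used differs from the start of that span.
Ahrr: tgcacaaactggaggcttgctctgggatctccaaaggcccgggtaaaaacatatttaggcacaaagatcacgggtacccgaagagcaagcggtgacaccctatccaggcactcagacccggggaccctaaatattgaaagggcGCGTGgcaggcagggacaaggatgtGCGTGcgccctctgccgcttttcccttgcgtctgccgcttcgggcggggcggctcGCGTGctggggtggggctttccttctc
Cyp1a1: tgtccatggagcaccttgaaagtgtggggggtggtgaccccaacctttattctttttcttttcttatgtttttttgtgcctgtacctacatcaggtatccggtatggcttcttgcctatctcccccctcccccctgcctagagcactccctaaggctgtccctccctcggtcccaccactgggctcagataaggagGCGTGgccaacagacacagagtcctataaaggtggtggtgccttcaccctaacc
Cyp1b1: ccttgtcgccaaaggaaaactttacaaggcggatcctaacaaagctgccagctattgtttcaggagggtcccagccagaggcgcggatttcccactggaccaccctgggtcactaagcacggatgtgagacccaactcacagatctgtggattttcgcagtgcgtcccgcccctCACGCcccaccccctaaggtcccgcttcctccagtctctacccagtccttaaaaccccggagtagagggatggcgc
Ahrr held 3 cores, and Cyp1a1 and Cyp1b1 held 1 each. Of 32851 promoter windows of 300 bases (250 before the start and 50 after it), 32.4% held at least 1 core on either strand and 3.92% held 3 or more. Of the 9 genes, 7 had a window and 5 of these (Ahrr, Tiparp, Cyp1b1, Vdr and, at 1 of its 4 starts, Ffar2) held a core. A match is a description of the letters and not a bound site.

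Of 17662 NW and 17785 ABX barcodes, 12474 and 12724 cells passed the filters, with a median of 5092 and 3845.5 UMIs per cell, and 196 cell barcodes occurred in both libraries. Clusters were called by their markers (X-like) or, where no name held, by a leading gene, and the 22 described are those in which neither library had fewer than 50 cells. The label checks touch the results. The endothelial-like cluster (417 NW and 603 ABX cells) was mixed, since Pecam1 was found in 27.8% and Ptprc, which encodes CD45, in 55.4% of its cells. Its median UMIs of the oligo-tagged antibodies against TCRβ (248) and CD8b (125.5) were the highest of the 22, above those of the T cell subsets. The monocyte-like cluster rested on Lyz1, Fn1 and Ear2 (19.2%, 21.6% and 18.7% of its cells), while Ccr2 and Ly6c2 were in 40.8% and 8.85%, against 43.5% and 14.4% of the other cells. It was also shallow (medians of 2228 and 1503.5 UMIs) and high in mitochondrial UMIs (13.2% and 14.9%). Fibroblast-like cells, with Ptprc in 20% and 22.5%, numbered 5 in NW and 89 in ABX. Levels are given as CPM (the UMIs of a gene summed over the cells of a subset and scaled to a common total of gene UMIs), and since transcripts were not normalized for length, levels are compared between subsets and libraries and not between genes.

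Over all cells, 4 of the 8 genes with at least 50 UMIs differed by at least 1.5-fold between the libraries, against 15.9% of all 14505 genes with as many UMIs, whose median log2 ratio was 0.07. Ffar2 and Cyp1b1 were higher in ABX, and Hcar2 and Vdr were lower. Within the 22 subsets together, 8 of 53 gene and subset pairs with at least 50 UMIs were past 1.5-fold, against 10.4% of all such pairs. The plot of the log2 ratios shows how far these values moved with the makeup of the libraries. When every subset was given the same share of cells in both libraries, the log2 ratio (ABX over NW) of Ffar2 went from 0.73 to 0.33, that of Vdr from −0.77 to −0.42 and that of Cyp1b1 from 3.22 to 0.64, while that of Hcar2 was −0.89 before and −0.82 after.

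**Figure D1:**
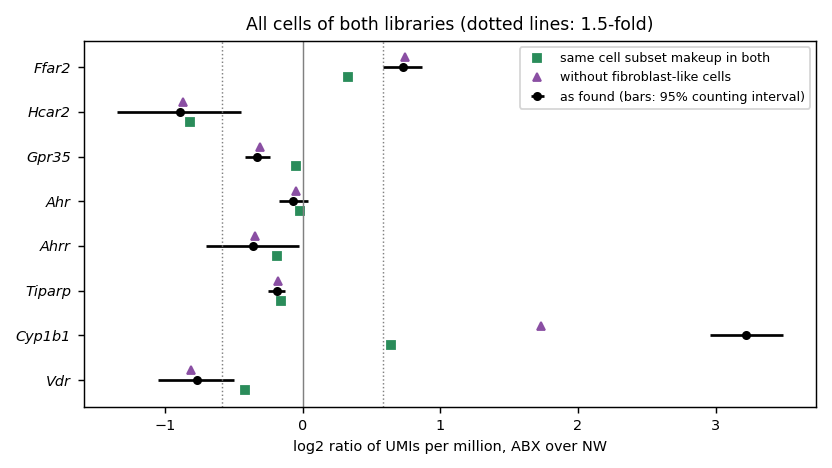
Log2 ratio of summed CPM, ABX over NW, for the 8 genes with at least 50 UMIs over all cells (x axis, log2 scale). Black points are the values as found with 95% counting intervals, green squares give every subset the same share of cells in both libraries, purple triangles leave out the fibroblast-like cells, and dotted lines mark 1.5-fold. Cyp1b1 moved most, from 3.22 to 1.73 without the fibroblast-like cells.

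Ffar2 (chr7:30818348-30823775, GRCm38, minus strand) had 727 UMIs in NW and 971 in ABX, or 9.67 and 16.0 CPM, a log2 ratio of 0.73 (0.58 to 0.87). Its level was highest in T cells outside the CD4+ and CD8+ subsets. The top was an unnamed cluster led by Il18r1, at 293 CPM in NW (240 to 354) and 257 CPM in ABX (221 to 298). Cells of that cluster carried Cd3e in 92.2%, Tcrg-C1 in 75.5%, Trac in 70.2% and Zbtb16 in 33.7%, but Trdc in 6.74%, Cd8a in 3.19% and Cd4 in 2.84%. Their median was 43 UMIs of the TCRβ antibody, against 8 in gamma-delta T-like cells. Gamma-delta T-like cells came next, at 219 CPM (191 to 250) in NW and 232 CPM (202 to 265) in ABX, and 91.4% of them held Trdc. In NW the counting interval of the ratio between these subsets left out 1, whereas in ABX the subsets could not be told apart.

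In the Il18r1-led cluster 37 of 85 NW cells (43.5%, exact interval 32.8% to 54.7%) and 71 of 197 ABX cells (36.0%, 29.3% to 43.2%) held a Ffar2 UMI. In gamma-delta T-like cells the shares were 33.2% (81 of 244) and 28.1% (82 of 292). The lowest share served as the background of free RNA, and it was 0 of 652 Ccl12-led macrophage-like cells in NW, which allows up to 0.46%, and 0 of 62 Ifit3-led macrophage-like cells in ABX, which allows up to 4.84%. The median depths were 4308 and 3335 UMIs in the Il18r1-led cluster, and 5270.5 and 4637.5 in these macrophage-like cells. In neither T cell subset did Ffar2 differ between libraries by more than counting error, with log2 ratios of −0.19 (−0.54 to 0.18) and 0.08 (−0.20 to 0.36). The Il18r1-led cluster made up 0.681% of NW cells and 1.55% of ABX cells and held 14.6% and 18.1% of all Ffar2 UMIs.

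Among 10877 genes, those whose level followed Ffar2 most closely over the 44 subset by library values included Aqp3 (Pearson r = 0.80) and Ret (0.79). These are descriptions over subsets that share a library and its depth.

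Of the 5 subsets in which Ffar2 could be tested, the cells labelled type 2 dendritic (cDC2-like) differed most between the libraries. Of the markers for that label, Flt3, Cd209a, Itgax and Irf4 were in 72.15%, 62%, 60.6% and 24.8% of them. In other cells these were in 12.7%, 15.5%, 12.8% and 8.86%. Sirpa and Clec10a were in 40.15% and 67.4%, against 31.0% and 51.8%, and Mgl2 was in 40.3% against 43.9%. In cDC2-like cells Ffar2 had 80 UMIs in NW and 157 in ABX, or 31.0 CPM (24.6 to 38.6) and 86.1 CPM (73.1 to 101), a log2 ratio of 1.47 (1.08 to 1.88). It was the 1 of 4 tested genes there past 1.5-fold, against 8.2% of all genes in that subset. The share of cells with a UMI was closer, with 36 of 361 cells in NW (9.97%, 7.08% to 13.5%) and 38 of 289 in ABX (13.1%, 9.48% to 17.6%), and it was 2.59% and 5.75% with each cell thinned to 1000 UMIs, which left out 4 and 3 shallower cells. The difference lay in the UMIs per positive cell, at 2.22 in NW and 4.13 in ABX. No NW cell had more than 5 Ffar2 UMIs, while 10 ABX cells had 6 to 11 and together held 87 of the 157 UMIs.

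The ABX cDC2-like cells with Ffar2 shared other transcripts. Of these 38 cells, 71.1% held Tbc1d4, 65.8% held Kit and 34.2% held Clec4a4, against 14.7%, 19.5% and 1.20% of the 251 cells without Ffar2. In NW the same genes were in 36.1%, 36.1% and 13.9% of 36 Ffar2-positive cells, against 19.4%, 25.5% and 0.923% of the other 325. The cDC2 marker Cd209a was in 55.3% of the positive and 55.4% of the negative ABX cells, but in 91.7% and 64.6% in NW. Sirpa and Flt3, also cDC2 markers, were in 76.3% and 92.1% of the positive ABX cells, against 30.7% and 68.5% of the negative. In NW they were in 77.8% and 91.7%, against 39.1% and 70.5%. The positive cells were deeper, with medians of 8141.5 against 6629 UMIs in NW and 7340.5 against 5768 in ABX, and the part of depth in these shares was not tested. On mRNA alone the nearest cluster, with a Jaccard index of 0.303 (shared cells over all cells of either), gave a log2 ratio of 1.03.

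Group 2 innate lymphoid cells (ILC2-like) held Ffar2 at a lower level, 38.6 CPM in NW and 47.1 CPM in ABX, a log2 ratio of 0.29 (−0.04 to 0.61). The resting CD4+ T-like cells had 24 UMIs in NW, but these lay in 4 of 76 cells, 1 of which held 14, and 2 UMIs were found in ABX. In the endothelial-like cluster Ffar2 was at 20.9 and 26.6 CPM, a log2 ratio of 0.35 (−0.16 to 0.87) that was 1.84 among cells with at most 10% mitochondrial UMIs. There, of the cells with at least 2 Ffar2 UMIs, 5 of 10 in NW and 14 of 17 in ABX held Rgs5, and 4 of 10 and 14 of 17 held Abcc9, both known as pericyte genes, against 6.58% and 0.759% of NW cells and 10.4% and 3.30% of ABX cells without Ffar2. The endothelial genes Pecam1 and Cdh5 were in 60% and 30% of these NW cells and 64.7% and 70.6% of these ABX cells. In cells without Ffar2 they were in 20.8% and 14.4% (NW) and 30.6% and 23.8% (ABX). Ptprc was in 60% and 35.3%, against 61.8% and 52.4%. The cells with at least 2 Ffar2 UMIs were deeper, with medians of 7364.5 against 5343 UMIs in NW and 9901 against 4096 in ABX. The part of depth in these shares was not tested. Regulatory T cells (Treg-like) had 8 Ffar2 UMIs in 4 of 395 NW cells and 13 UMIs in 5 of 167 ABX cells, too few for a statement on level. Neutrophil-like cells, in which FFAR2 is a known chemotactic receptor, had none in 62 NW and 54 ABX cells, which allows shares of up to 4.84% and 5.56%. Their median depths were 1839 and 1505 UMIs, so a low level of Ffar2 there could not be told from none.

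**Figure D2:**
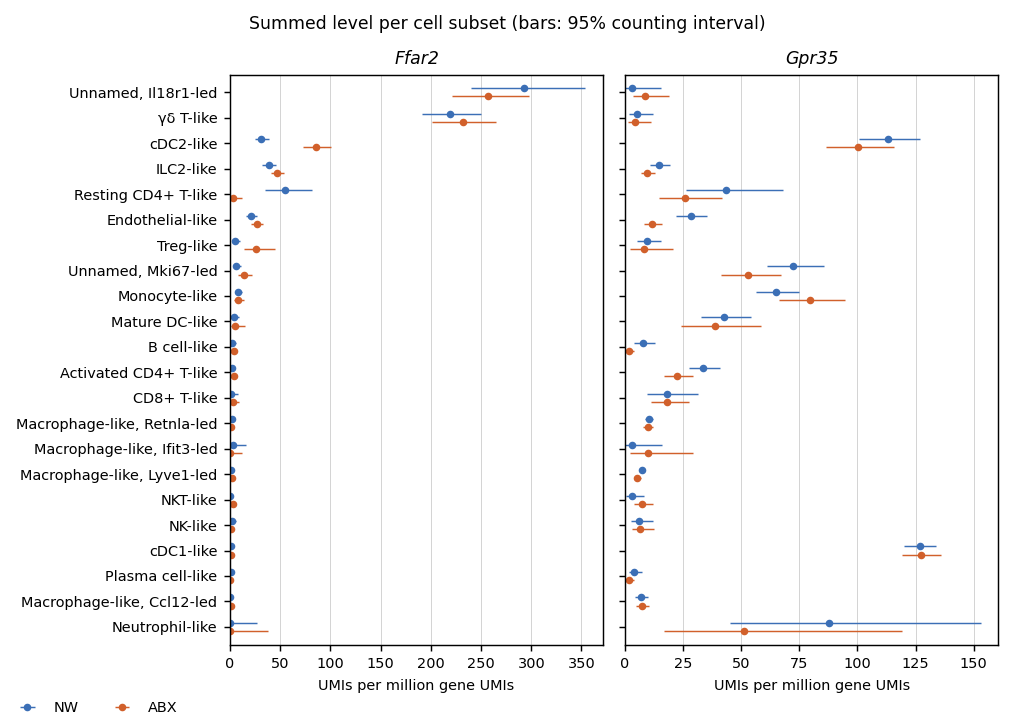
Summed level of Ffar2 (left) and Gpr35 (right) in CPM (x axes, linear) in 22 cell subsets (rows, ordered by the mean Ffar2 level) of the NW (blue) and ABX (orange) libraries, with 95% counting intervals as bars. Ffar2 was highest in the Il18r1-led and gamma-delta T-like cells and differed between libraries in cDC2-like cells (31.0 and 86.1), whereas Gpr35 was highest in cDC1-like cells in both libraries (127 and 127).

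Hcar2 (chr5:123863570-123865499, minus strand) had 140 UMIs in NW and 61 in ABX, or 1.86 and 1.00 CPM, a log2 ratio of −0.89 (−1.35 to −0.45). Its level was highest in neutrophil-like cells. The neutrophil-like cells, 0.497% of NW and 0.424% of ABX cells, held 52.9% and 57.4% of its UMIs, at 540 CPM (424 to 678) and 358 CPM (249.2 to 497.6). No other subset exceeded 3.48 CPM in either library. B cell-like cells had no UMI in 349 NW and 942 ABX cells, which allows shares of up to 0.86% and 0.319%.

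Of the neutrophil-like cells, 31 of 62 in NW (50%, 37.0% to 63.0%) and 13 of 54 in ABX (24.1%, 13.5% to 37.6%) held Hcar2. Thinned to 1000 UMIs, leaving out 2 and 7 cells, the shares were 35.4% and 21.5%. The intervals of the shares before thinning overlapped only from 37.0% to 37.6%. The log2 ratio of the summed UMIs in these cells was −0.59, with an interval from −1.22 to 0.00. A difference in summed level beyond counting error was thus not detectable at this depth. The ratio was past 1.5-fold, as were 22.6% of the genes tested in these few cells, and it ran from −0.51 to −0.89 over the alternatives, which put it on either side of 1.5-fold. The markers S100a8, Csf3r and Cxcr2 were in 96.6%, 96.6% and 97.4% of these cells, while Ly6g was in 12.1%. Over the pooled macrophage-like cells, in which 9.21% of genes were past 1.5-fold, Hcar2 had 42 UMIs in NW and 16 in ABX, a log2 ratio of −0.73 (−1.66 to 0.14).

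Gpr35 (chr1:92950865-92986391, plus strand) was highest in type 1 and type 2 dendritic cells. Conventional type 1 dendritic cells (cDC1-like) held 50.1% of its UMIs in NW and 53.0% in ABX. Their level was 127 CPM (120 to 134) in NW and 127 CPM (119 to 136) in ABX, and 51.0% of 1250 NW cells and 48.2% of 952 ABX cells had a UMI. The log2 ratio of 0.00 had an interval of −0.12 to 0.13, and 5.41% of genes in cDC1-like cells were past 1.5-fold. The lowest shares of cells with a UMI were 0.980% in NKT-like cells of NW and 0.743% in B cell-like cells of ABX, at median depths of 3357 and 3892.5 against 8448.5 and 7720.5 in cDC1-like cells.

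cDC2-like cells followed at 113 CPM in NW (101 to 127) and 100 CPM in ABX (86.3 to 116), a log2 ratio of −0.17 (−0.45 to 0.10). Monocyte-like cells had 65.0 and 79.5 CPM, a log2 ratio of 0.29 (−0.04 to 0.62), and mature dendritic cells (Mature DC-like) had 42.5 and 38.7 CPM. The levels of an unnamed cluster led by Mki67 (72.4 and 52.9 CPM) and of neutrophil-like cells (87.6 and 51.1 CPM) were above those of Mature DC-like cells. The neutrophil-like cells held only 12 and 5 Gpr35 UMIs. In NW the intervals could not separate cDC1-like from cDC2-like cells, whereas in ABX cDC1-like cells were above cDC2-like cells and these above monocyte-like cells. The Lyve1-led, Retnla-led and Ccl12-led macrophage-like cells, the largest group of cells, were at 5.25 to 10.2 CPM in both libraries.

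Over all cells Gpr35 went from 2646 UMIs to 1703, or 35.2 to 28.0 CPM, a log2 ratio of −0.33 (−0.42 to −0.24), and at an equal makeup of subsets the ratio was −0.05. The cDC1-like cells were 1250 of the NW cells and 952 of the ABX cells. Gpr35 was past 1.5-fold, lower in ABX, in 3 of 11 subsets tested. These were the endothelial-like cluster with 73 and 37 UMIs (log2 ratio −1.30, −1.91 to −0.71, background 16.9%), activated CD4+ T-like cells with 106 and 56 UMIs (−0.59, −1.09 to −0.11, background 9.04%) and ILC2-like cells with 49 and 43 UMIs (−0.61, −1.24 to 0.01, background 8.2%). Over the alternatives these ratios ran from −1.19 to −3.21, from −0.37 to −1.25 and from −0.59 to −1.10, so that of the T cells did not always pass 1.5-fold. The ends of −1.25 and, with the same clustering on mRNA, −3.05 came from clusters that shared few cells with these (Jaccard indices of 0.181 and 0.319).

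In the activated CD4+ T-like cells, the transcripts of cDC1 cells moved with Gpr35. Of the cells with a Gpr35 UMI, 65.6% of 61 in NW and 70% of 30 in ABX also held Clec9a, and 83.6% and 83.3% held Naaa, both cDC1 genes, against 7.58% and 16.8% of NW cells and 7.16% and 13.7% of ABX cells without Gpr35. Their median depths were 10361 and 10160.5 UMIs, against 3436.5 and 3305 in the cells without it. Without cells that held at least 2 of 5 cDC1 genes the log2 ratio in this subset was −0.88. In cells of the endothelial-like cluster with at least 2 of 6 endothelial markers, 11 Gpr35 UMIs were found in 4 of 68 NW cells and 3 UMIs in 2 of 173 ABX cells. Most Gpr35 UMIs of that cluster, 62 in NW and 34 in ABX, lay in its cells with fewer markers, at 29.2 and 16.5 CPM. Those cells were 83.7% of the cluster in NW and 71.3% in ABX. Over the 44 values, Skint3 (r = 0.90), Krt80 (0.87) and AC163018.1 (0.87) followed Gpr35 most closely.

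Gpbar1 (chr1:74278550-74279624, plus strand), the receptor of secondary bile acids, had 2 UMIs in 12474 NW cells and 2 in 12724 ABX cells. A difference between the libraries was not detectable at this depth, and no level can be given for a subset. Of 13 genes, 4 had at least 50 UMIs (S1pr2, Abcc3, Nr1h3 and Nr1h2), none was past 1.5-fold, and their median log2 ratio was −0.05. The oxysterol receptor gene Nr1h2 was at 0.06, the transporter gene Abcc3 at −0.12 and the bile acid-responsive receptor gene S1pr2 at 0.00. The farnesoid X receptor gene Nr1h4 had 4 and 14 UMIs, and the transporter genes Slc10a1 and Slc51b had at most 1 UMI in a library.

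Ahr (chr12:35497974-35535038, minus strand) was found in every subset of NW and in all but the neutrophil-like cells of ABX. It had 1763 UMIs in NW and 1360 in ABX, or 23.4 and 22.4 CPM, a log2 ratio of −0.07 (−0.17 to 0.04). ILC2-like cells were highest, at 32.9 CPM (27.1 to 39.7) in NW and 37.3 CPM (31.8 to 43.4) in ABX, and 11.5% of 759 and 11.0% of 1244 cells held a UMI. Retnla-led macrophage-like cells, at 32.7 and 33.98 CPM, and Ccl12-led macrophage-like cells, at 32.5 and 31.2 CPM, could not be told apart from them. CD8+ T-like cells were lowest in NW, at 2.99 CPM with 2 UMIs in 162 cells (1.23% of cells), and had 5.98 CPM in ABX. None of 11 subsets tested was past 1.5-fold, and their log2 ratios ran from −0.45 to 0.36. Bad (r = 0.85), Zfp219 (0.79) and Ptpra (0.78) followed its level most closely over the 44 values.

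Ahrr (chr13:74211118-74292331, minus strand), the AHR repressor and a target of AHR, lay largely in macrophage-like cells. It had 197 UMIs in NW and 124 in ABX, or 2.62 and 2.04 CPM, a log2 ratio of −0.36 (−0.70 to −0.03). The pooled macrophage-like cells held 74.1% and 73.4% of these UMIs, at 4.09 and 4.05 CPM, a log2 ratio of −0.02 (−0.41 to 0.37). A UMI was found in 2.08% of macrophage-like cells in NW and 1.65% in ABX, against 0 of 349 B cell-like cells in NW (up to 0.86%) and 0 of 1244 ILC2-like cells in ABX (up to 0.241%), at median depths of 5681 and 4084 against 4085 and 3460.5. The Retnla-led cells had 49 and 46 UMIs (0.52, −0.09 to 1.13) and the Lyve1-led cells 75 and 38 (−0.08, −0.68 to 0.50), and neither was past 1.5-fold.

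Tiparp (chr3:65528410-65555518, plus strand) encodes an ADP-ribosyltransferase that is an AHR target and restrains AHR. It had 5217 UMIs in NW and 3704 in ABX, or 69.4 and 60.9 CPM, a log2 ratio of −0.19 (−0.25 to −0.13). Every one of the 22 subsets held it in both libraries. The highest levels rested on few UMIs, 21 in the NW neutrophil-like cells (153 CPM, 94.9 to 234) and 37 in the ABX Ifit3-led macrophage-like cells (123 CPM), and could not be told apart from the next subset. In plasma cell-like cells it was at 83.9 CPM (72.2 to 97.0) in NW and 83.3 CPM (73.3 to 94.3) in ABX, and 48.5% of 163 and 51.2% of 260 cells had a UMI. Mature DC-like cells were lowest, at 18.6 and 12.3 CPM. NK-like cells gave the lowest share in NW (6.77%), and NKT-like cells gave the lowest in ABX (5.96%).

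Of 20 subsets tested, Tiparp was past 1.5-fold in 1, the gamma-delta T-like cells, with 25 and 38 UMIs (log2 ratio 0.71, −0.05 to 1.5, background 9.75%). That ratio ran from 0.25 to 1.30 over the alternatives. In 14 of the 20 subsets the log2 ratio was below 0. The interval lay wholly below 0 only in ILC2-like, Lyve1-led macrophage-like and cDC1-like cells. All subsets came from the same libraries, so their directions are not separate observations. The genes nearest to Tiparp over the 44 values included Sik1 (r = 0.83) and Fos (0.77). Immediate early and heat shock genes, which tissue digestion can induce, were summed for comparison. Over the 44 values the log2 level of Tiparp and that of 16 such genes summed had a Pearson r of 0.70 and a Spearman rho of 0.68, and over all cells the sum of the 16 had a log2 ratio of −0.24. Of the 16, none was higher and 3 were lower in ABX by at least 1.5-fold (Egr1 −0.88, Nr4a1 −0.70 and Atf3 −0.66), the most expressed genes of the list were Hspa1b (0.03), Jun (−0.20) and Hspa1a (−0.12), and the median was −0.32 against 0.07 over all genes. Their part in the level of Tiparp was not tested.

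**Figure D3:**
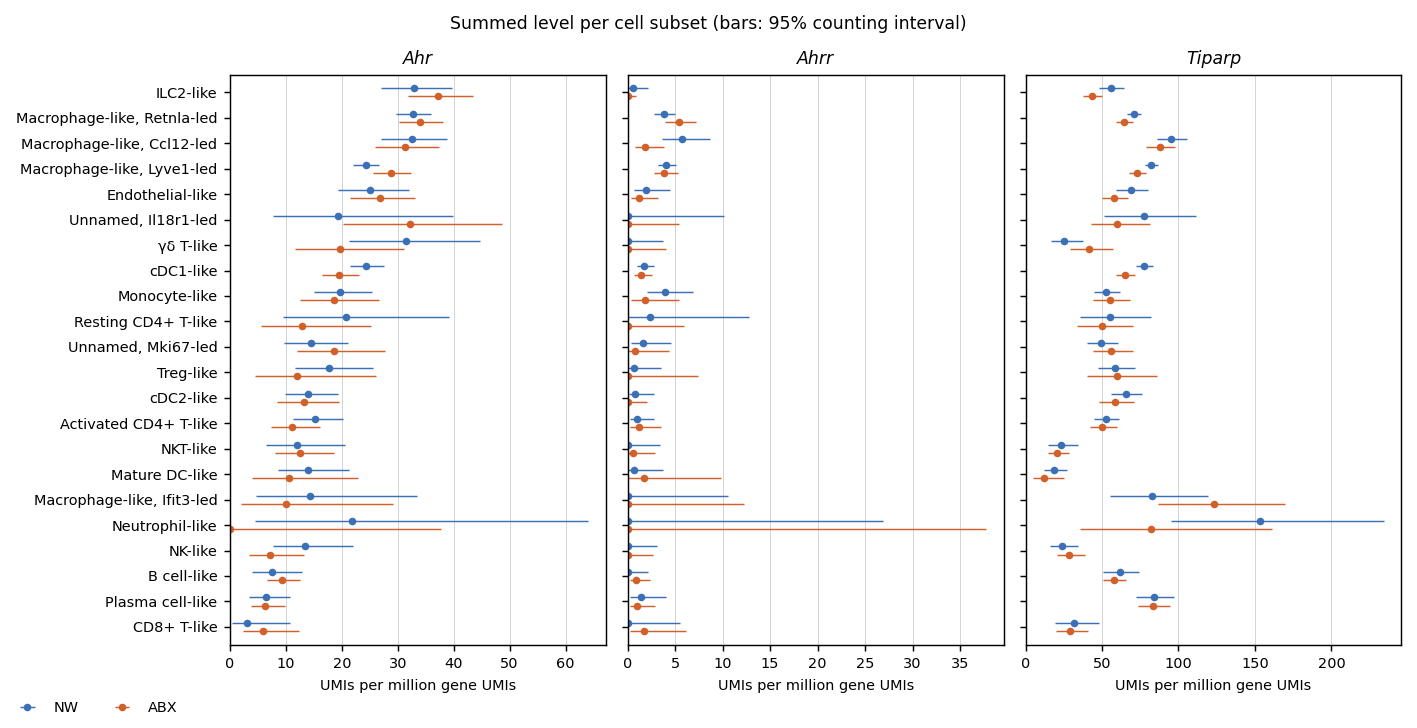
Summed level of Ahr, Ahrr and Tiparp in CPM (x axes, linear, each panel with its own scale) in 22 cell subsets (rows, ordered by the mean Ahr level) of the NW (blue) and ABX (orange) libraries, with 95% counting intervals as bars. Ahr was near 33 to 37 in ILC2-like and near 31 to 34 in Retnla-led and Ccl12-led macrophage-like cells of both libraries, and most intervals of the libraries overlapped in all panels.

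Cyp1b1 (chr17:79701537-79715061, minus strand), a cytochrome P450 and AHR target that stromal cells also make, had the largest ratio of the 8 genes tested. It had 135 UMIs in NW and 1014 in ABX, or 1.79 and 16.7 CPM, a log2 ratio of 3.22 (2.96 to 3.49). The fibroblast-like cells held 45 of the NW and 775 of the ABX UMIs, which were 33.3% and 76.4% of the total. All 5 fibroblast-like cells in NW and 88.8% of the 89 in ABX had a UMI, at 673 CPM (490 to 900) and 992 CPM (924 to 1065). The cells had been selected for CD45, and these cells carried Col1a2 in 100% and 94.4% and Dcn in 100% and 98.9%.

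Without the fibroblast-like cells 90 and 239 UMIs were left, a log2 ratio of 1.73. Fibroblast transcripts also moved with Cyp1b1 outside that cluster. The 4 NW and 8 ABX other cells with at least 5 Cyp1b1 UMIs held 38 and 119 of those UMIs, and all of them had at least 5 UMIs of the 6 fibroblast markers, from 49 to 137 in NW and from 37 to 508 in ABX. At least 1 fibroblast marker UMI was in 7.85% of the other NW cells and 16.4% of the other ABX cells. With all cells of at least 5 fibroblast marker UMIs left out as well, the log2 ratio was 1.40.

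In subsets, Cyp1b1 was past 1.5-fold and higher in ABX in both it could be tested in. In Lyve1-led macrophage-like cells it had 21 and 95 UMIs (1.13 and 9.60 CPM, log2 ratio 3.08, 2.39 to 3.84), in a subset where 8.25% of genes were past 1.5-fold. Those UMIs lay in 12 of 2808 and 18 of 2026 cells, and 9 of the 18 ABX cells also held Dcn, against 15.6% of the rest. Without cells with at least 5 fibroblast marker UMIs the ratio was 1.02. Over all macrophage-like cells Cyp1b1 had 43 and 128 UMIs (2.24, 1.73 to 2.77), and without such cells the ratio was 1.32. In the endothelial-like cluster it had 37 and 73 UMIs (14.3 and 22.6 CPM, 0.66, 0.07 to 1.27), and 7 of the 10 NW and 17 of the 25 ABX cells with a UMI also held Dcn. Over the alternatives this ratio ran from −0.07, in an mRNA cluster with a Jaccard index of 0.319, to 2.36. No UMI was found in 162 CD8+ T-like cells of NW (up to 1.85%) or in 1244 ILC2-like cells of ABX (up to 0.241%). Over the 44 values the stromal genes Chrdl1 (r = 0.90), Adamts1 (0.87) and C1s1 (0.87) followed Cyp1b1 most closely.

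The remaining AHR pathway genes were read from a list of 16, which includes Ahr, Ahrr, Tiparp and Cyp1b1. Of these, 14 had at least 50 UMIs, 3 were higher and none lower in ABX by at least 1.5-fold, with a median log2 ratio of −0.06. Over all genes 15.9% were past 1.5-fold, 1931 higher and 369 lower, and the counts of this list and of those below stand beside that share. The receptor's partner and chaperone genes differed little. Arnt was at 53.3 and 51.7 CPM (log2 ratio −0.04), and the 3 most expressed, the chaperone genes Hsp90ab1, Hsp90aa1 and Ptges3, had ratios of −0.16, −0.14 and −0.01. Beside Cyp1b1, the targets Cyp1a1 and Nqo1 were higher. Nqo1, a quinone reductase gene, had 88 and 125 UMIs (0.81, 0.41 to 1.22).

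Cyp1a1 (chr9:57687928-57703824, plus strand), a textbook AHR target, was found largely in the ABX endothelial-like cluster. It had 6 UMIs in all NW cells and 432 in all ABX cells, of which 0 and 400 lay in that cluster. Among the cells with UMIs of at least 2 of 6 endothelial markers, which were 16.3% of the cluster in NW and 28.7% in ABX, Cyp1a1 was in 0 of 68 NW cells, which allows a share of up to 4.41%, and in 46 of 173 ABX cells (26.6%, 20.2% to 33.8%). With 398 UMIs against a floor of 3 counts for the NW cells, its level was at least 52.5-fold higher in ABX. A single cell held up to 59 of the UMIs. The median depths of these cells were 5237.5 and 4889 UMIs.

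The level of Nqo1 was also higher in those cells, with 13 UMIs in NW and 95 in ABX, a log2 ratio of 1.53 (0.69 to 2.49). The shares of cells were closer and their intervals overlapped. A Nqo1 UMI was in 12 of 68 NW cells (17.65%, 9.47% to 28.8%) and 48 of 173 ABX cells (27.75%, 21.2% to 35.05%). A single ABX cell held up to 12 of the UMIs. Ahr itself had 23 and 37 UMIs there (−0.65, −1.44 to 0.17) and Tiparp 17 and 51 (0.25, −0.57 to 1.13), neither beyond counting error. Cyp1b1 had 2 and 26 UMIs, and Ahrr had 0 and 2. Ffar2 in the same cells was at 49.5 and 50.3 CPM (0.02, −0.70 to 0.78). No Cyp1a1 UMI was found in the fibroblast-like cells, which at 5 and 89 cells allows shares of up to 60% and 3.37%. The sort had selected for CD45, and whether the endothelial cells that remained were alike in both libraries was not tested.

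**Figure D4:**
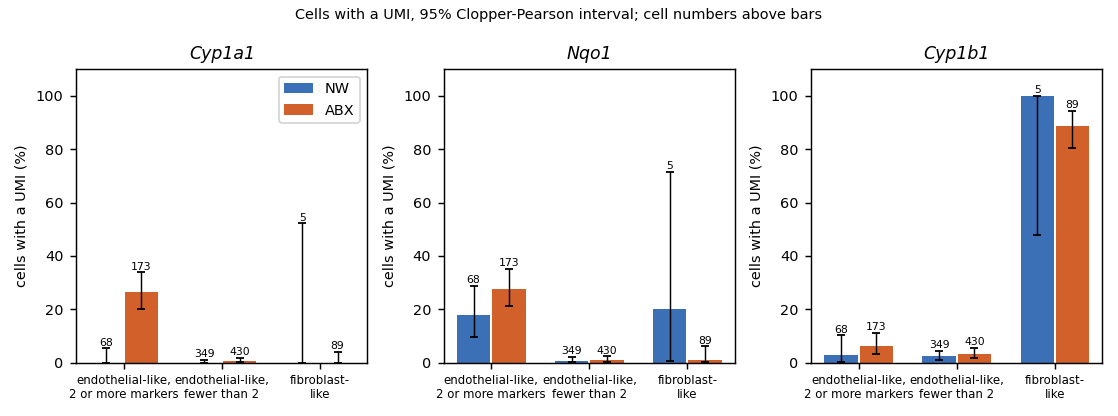
Share of cells with a UMI of Cyp1a1, Nqo1 and Cyp1b1 (y axes, percent, from 0) in cells of the endothelial-like cluster with 2 or more endothelial markers, cells of that cluster with fewer, and fibroblast-like cells of the NW (blue) and ABX (orange) libraries. Bars are shares with 95% Clopper-Pearson intervals and the numbers above them are cells. Cyp1a1 was in 0 of 68 NW and 46 of 173 ABX endothelial-marker cells, and Cyp1b1 was in 100% of 5 NW and 88.8% of 89 ABX fibroblast-like cells.

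Vdr (chr15:97854425-97910630, minus strand) had 343 UMIs in NW and 162 in ABX, or 4.56 and 2.67 CPM, a log2 ratio of −0.77 (−1.05 to −0.50) that was −0.56, within 1.5-fold, with every cell weighted equally. Mature dendritic cells held it at the highest level, 106 CPM (90.4 to 124) in NW and 80.9 CPM (59.2 to 108) in ABX, a log2 ratio of −0.39 (−0.90 to 0.09). A UMI was in 45 of 182 cells (24.7%, 18.6% to 31.6%) and 14 of 74 cells (18.9%, 10.8% to 29.7%). These cells were 1.46% of NW and 0.582% of ABX cells and held 46.6% and 28.4% of all Vdr UMIs, and Fscn1 and Ccr7 marked 88.3% and 93.4% of them. The lowest shares were 0 of 62 neutrophil-like cells in NW (up to 4.84%) and 0 of 390 NK-like cells in ABX (up to 0.769%).

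Within mature dendritic cells, Vdr went with a further set of transcripts in both libraries. Crem was in 68.9% of the 45 NW cells with Vdr and 64.3% of the 14 ABX cells, against 20.4% and 18.3% of the cells without. Ramp3, which encodes a partner of the calcitonin-type receptors, was in 77.8% and 85.7%, against 42.3% and 31.7%. The Vdr-positive cells had medians of 10160 and 9843 UMIs, against 7219 and 7089. Gamma-delta T-like cells came next at 23.3 and 21.9 CPM, with 23 and 20 UMIs.

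Some myeloid subsets below the minimum of 50 UMIs held fewer Vdr UMIs in ABX. Monocyte-like cells had 25 UMIs in 15 NW cells and 2 UMIs in 2 ABX cells, or 8.21 CPM (5.31 to 12.1) and 1.24 CPM (0.150 to 4.49). Retnla-led macrophage-like cells had 41 and 7 UMIs, or 3.16 and 0.826 CPM, whereas Ccl12-led macrophage-like cells had 2 and 7. Over the pooled macrophage-like cells Vdr had 57 and 17 UMIs, a log2 ratio of −1.08 (−1.95 to −0.28), past 1.5-fold, and −0.58 in the clustering on mRNA alone, just within it. Of the 23 Retnla-led NW cells with Vdr, 30.4% held Fn1 and 30.4% held Ear2, monocyte genes, against 5.76% and 2.99% of the cells without, and Fn1 was in 1.83% of ABX cells without Vdr. The part of these monocyte transcripts in the difference was not tested. Laptm4b (r = 0.76), Dap (0.75) and Pcgf5 (0.75) followed Vdr most closely over the 44 values.

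**Figure D5:**
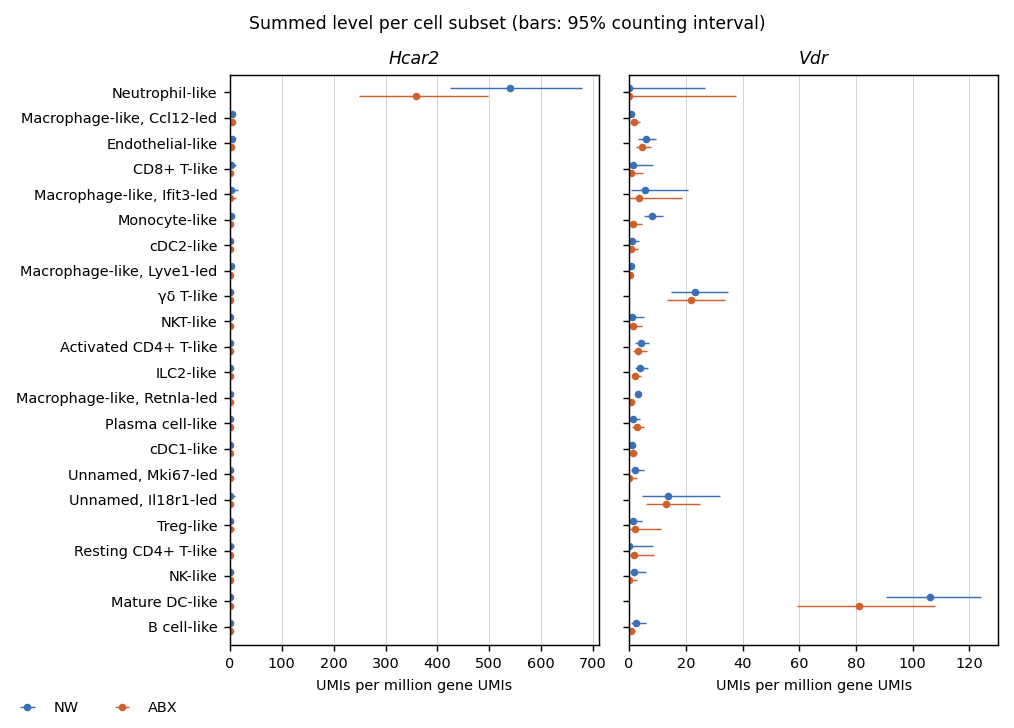
Summed level of Hcar2 (left) and Vdr (right) in CPM (x axes, linear) in 22 cell subsets (rows, ordered by the mean Hcar2 level) of the NW (blue) and ABX (orange) libraries, with 95% counting intervals as bars. Hcar2 stood out in neutrophil-like cells (540 and 358) and Vdr in Mature DC-like cells (106 and 80.9).

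Of the 10 genes listed for the vitamin D pathway, 7 were tested. Rxrg, a retinoid X receptor gene highest in ILC2-like cells, was higher in ABX (39 and 66 UMIs, log2 ratio 1.07, 0.47 to 1.68) and Vdr was lower, with a median of −0.08. ILC2-like cells were 6.1% of NW and 9.8% of ABX cells. The most expressed, Pdia3, Cyp27a1 and Rxrb, had ratios of −0.48, −0.02 and −0.08. The target gene Cyp24a1, which active vitamin D induces, had 2 and 1 UMIs.

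Among the short-chain fatty acid receptors and transporters, 5 of 9 genes were tested, with Ffar2 higher, Hcar2 lower and a median log2 ratio of −0.06, against 15.9% past 1.5-fold and a median of 0.07 over all genes. Ffar3, the other short-chain fatty acid receptor gene, had 6 and 3 UMIs, and Olfr78 had 2 and 7. The transporter gene Slc16a7, the most expressed of the list, had a log2 ratio of −0.34 (−0.42 to −0.26), and the butyrate transporter gene Slc16a1 had 0.06. Of 10 other metabolite receptor genes 8 were tested, with a median of −0.11. Of these only Ffar1, a receptor gene for longer fatty acids highest in B cell-like cells, was past 1.5-fold, with 120 and 237 UMIs (1.29, 0.97 to 1.62), and B cell-like cells were 2.80% of NW and 7.40% of ABX cells. The 3 most expressed of that list were Gpr132 (log2 ratio 0.14), Gpr183 (0.07) and Gpr35.

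Of 8 listed genes for enzymes that act on tryptophan or its products, 5 were tested. Il4i1 was lower in ABX (1217 and 630 UMIs, log2 ratio −0.64, −0.78 to −0.50), and the median was −0.29. Il4i1 was highest in Mature DC-like cells, which were 1.46% of NW and 0.582% of ABX cells. Kmo, Haao and Il4i1 were the most expressed, and the ratios of the former were −0.29 and 0.27. All 8 histone deacetylase genes listed, whose products butyrate inhibits, were tested, with a median of 0.11. Hdac7, highest in CD8+ T-like cells (1.30% of NW and 2.22% of ABX cells), was higher (0.68, 0.60 to 0.75). The most expressed genes of that list were Hdac1 (0.07), Hdac7 and Hdac2 (0.08). Of 5 PPAR genes 4 were tested. Pparg was at 24.8 and 31.4 CPM (0.34, 0.25 to 0.43). It was highest in the endothelial-like cluster, which was 3.34% of NW and 4.74% of ABX cells. Ppargc1a, highest in NK-like cells (2.6% of NW and 3.1% of ABX cells), was higher in ABX with 45 and 117 UMIs (1.69, 1.18 to 2.22). Ppard and Ppargc1b were at 0.01 and 0.29, and the median was 0.31.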

How the data were processed

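The authors sorted CD45+ VAT cells with magnetic beads, labelled them with oligo-tagged antibodies and built 1 BD Rhapsody library per condition. They deposited UMI counts per cell and gene, which the BD Rhapsody pipeline made against GRCm38 with its correction of UMI errors (RSEC) and which are not normalized. R 3.6.0, Seurat 3.0.1 and mm10 stand in the submitters' processing notes. The files hold 10 antibodies, of which the 8 named in the methods were used.

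Cells with at least 500 UMIs, 200 genes and at most 25% mitochondrial UMIs were kept and clustered in Seurat 5.3.0 (R 4.3.3) on 2000 variable genes, 30 principal components and the antibodies by weighted nearest neighbours, at resolution 0.6. A cluster was named from at least 3 listed markers found in at least 10% of its cells and at least 1.5-fold above the others, and this naming rule was set after seeing the clusters. Ffar2, Hcar2, Gpr35, Cyp1b1 and Vdr were among the variable genes, so a subset's level of them is a description. Scrublet (scanpy 1.11.5) marked 2.76% of NW and 0.605% of ABX cells as doublets, which were kept in the values reported and left out in an alternative. Its score threshold was set per library, at 0.2505 in NW and 0.4346 in ABX, so these shares cannot be compared. UMIs were summed per subset and library and divided by the summed gene UMIs (75214427 NW and 60770758 ABX over all cells). Levels carry exact Poisson, shares exact Clopper-Pearson and ratios exact Poisson ratio intervals (95%, scipy 1.17.1, Python 3.11.15), and a count of 0 was taken to allow 3 counts. A ratio was called past 1.5-fold where the gene had at least 50 UMIs. Scripts were tested on simulated data. With 1 library per condition no p-value was computed. edgeR 4.0.16 served only for scaling factors in an alternative.

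The 9 genes and the lists were chosen with earlier results of these data known, and the co-detected genes named were chosen after their values were seen. The genes named are the 9, the listed pathway genes past 1.5-fold, the 3 most expressed of a list, the 3 with the most similar log2(CPM + 1) pattern among genes with at least 500 UMIs, and those on which a result turns. Some genes that this rule names are not reported here.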

Additional observations from a re-analysis of the deposited data

How the results depend on the processing

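No paired analysis was possible because each condition was 1 library. The log2 ratios over all cells kept their direction under every alternative run. At an equal makeup of subsets they were 0.33 for Ffar2, −0.05 for Gpr35, 0.64 for Cyp1b1 and −0.42 for Vdr, which left Ffar2 and Vdr within 1.5-fold. Cyp1b1 was 1.73 without fibroblast-like cells, 1.40 without other cells of at least 5 fibroblast marker UMIs too, and 2 without endothelial-like and fibroblast-like cells, 3 alternatives chosen after seeing the data. Gpr35 was −0.47 with cells weighted equally, and Tiparp was −0.28 with edgeR's scaling. Vdr was −0.56, within 1.5-fold, with cells weighted equally. Of the subset ratios past 1.5-fold 1 turned, that of Cyp1b1 in the endothelial-like cluster, at −0.07 when clustered on mRNA alone (Jaccard index 0.319), and it was within 1.5-fold with the 9 genes left out of the variable genes (0.27), at a higher resolution (0.37) and with edgeR's scaling (0.58). Tiparp in gamma-delta T-like cells was 0.25 on mRNA alone, Hcar2 in neutrophil-like cells −0.55 with at least 1000 UMIs per cell, and Gpr35 in activated CD4+ T-like cells −0.37 with 50 principal components. Ratios that newly passed 1.5-fold included Ffar2 in the endothelial-like cluster at most 10% mitochondrial UMIs (1.84) and Ahr on mRNA alone in B cell-like cells (2.14). With all 53 pairs kept, 6 to 10 were past 1.5-fold against 8, of which 6 to 8 were shared. With 50 components (48 pairs), on mRNA alone (36) and without cells of at least 2 cDC1 genes (44), 6, 9 and 7 were, against 7 of the same pairs, and 5 were shared in each. The cause of these changes was not tested. With 50 components no cluster matched the cDC2-like or Ifit3-led macrophage-like cells, and the monocyte-like match shared few cells (Jaccard index 0.072, and 0.071 at the higher resolution). On mRNA alone none matched the NKT-like, resting CD4+ T-like, Il18r1-led or single macrophage-like clusters. With 50 components Gpr35 in cDC1-like cells was at 104 CPM in NW and 113 in ABX, and Cyp1b1 in the ABX endothelial-like cluster was at 17.3 CPM with the 9 genes left out. Thinned to 1000 UMIs per cell, the shares of cells with a UMI (NW, then ABX where it moved) were 19.2% and 17.6% for Ffar2 in the Il18r1-led cluster, 35.4% for Hcar2 and 12.2% for Tiparp in neutrophil-like cells, 11.1% and 10.8% for Gpr35 in cDC1-like cells, 3.17% and 3.40% for Ahr in ILC2-like cells, 0.455% and 0.554% for Ahrr in Retnla-led macrophage-like cells, 0.810% and 1.33% for Cyp1b1 in the endothelial-like cluster, and 7.53% and 5.54% for Vdr in Mature DC-like cells, since thinning lowers every share by construction. Depth limits Gpbar1, for which no subset level could be given, and the neutrophil-like cells, with 62 and 54 cells. No interval covers the spread between mice.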

Other observations

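Plasmacytoid dendritic cells (pDC-like) were too few for the comparisons, with 19 cells in NW and 11 in ABX. Gpr35 had 8 and 5 UMIs in them, or 80.3 and 105 CPM, and 26.3% and 27.3% of the cells held a UMI. Tph1, which encodes the first enzyme of serotonin synthesis and was below the minimum of 50 UMIs, had 28 UMIs in NW and 2 in ABX. Nr1h4 had 4 and 14 UMIs and Slc5a8, a butyrate transporter gene, 6 and 15.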
